A study of Xenopus tropicalis with 5 samples.

Results

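The genes described here encode regulators of the translation and decay of mRNA, and the values are the 5-methylcytosine (m5C) levels of their own transcripts in Xenopus tropicalis stage 0 embryos. Genes were taken by symbol from families that control the poly(A) tail, hold mRNA in ribonucleoprotein particles (RNPs), or remove the tail, the cap or the body of an mRNA. The rule reads symbols and no measured value, although it was drawn up with results of these data known. The 4 lists of m5C sites held 320 sites in 84 such genes, of 23009 sites in 6783 gene symbols in all.

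Until the zygotic genome is switched on, the proteins of an egg and early embryo are made from mRNA stored during oogenesis. Stored transcripts are mostly silent with short poly(A) tails, and translation is opened or closed by lengthening or shortening the tail through proteins that bind the 3′ untranslated region. Later, the same kinds of proteins clear the maternal mRNA by removing the tail, then the cap, and degrading the body from either end. Whether m5C alters the translation or stability of these particular transcripts was not measured here.

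RNA bisulfite sequencing turns unmethylated C into U, which is read as T, while m5C stays C, and a level here is the percentage of reads that kept the C at a position. Polyadenylated RNA came from embryos at stage 0, about 200 for an RNA isolation, and the labels name no treatment or genotype in any group. By their labels 2 libraries were of 100 ng and 1 each of 5, 10 and 20 ng of RNA. The authors combined both libraries of 100 ng into 1 list with 1 set of values, and the study calls its replicates technical in one place and biological in another, and no group had a spread between samples. The labels also state a conversion of at least 100 ng for every library, so the input is the labelled amount only. No list holds a site of fewer than 20 reads or a level under 10%, so a site that was not listed may have had fewer reads, a lower level or another failed filter. All intervals are at 95%. Those of the level of 1 site are exact intervals of its read counts. They cover the counting error of reads only and not that of molecules, since the reads carry no molecular identifiers. Those of medians and shares are taken over sites or genes as if these were independent, and they cover no spread between libraries. Positions are those of the authors' files on the Xenbase 9.1 genome, which do not say whether they count from 0 or 1. Exon, intron and untranslated regions were not analysed here.

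Most marker genes of the egg considered here had a listed site. Of 16 egg and oocyte marker genes in the gene table, 12 had a site at 100 ng, and of 11 genes of zygotic transcription and later germ layers 1 did. Among the 12, zar1l, btg4, ybx2 and cpeb1 are themselves regulators described below. The marker lists were drawn up with results of these data known, so they are no independent check. The lists hold methylated sites only, so a gene without one may still be expressed. The share of all genes of the gene table with a site is not given here for comparison.

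At 100 ng the regulators had 253 sites in 80 genes, of 18524 sites in 6394 gene symbols. At 5, 10 and 20 ng there were 184 sites in 63 genes, 182 in 60 and 194 in 70. Their median level at 100 ng was 20.5% (interval 18.7 to 23.0%), compared with 20.9% (20.6 to 21.2%) over all sites, and the intervals overlapped. At 5, 10 and 20 ng the median of the regulators was 23.0%, 21.7% and 21.1%, and that of all sites 22.2%, 22.4% and 22.2%. A level of at least 50% was found at 50 of the 253 sites, which is 19.8% (15.0 to 25.2%), compared with 16.2% of all sites. The median coverage at 100 ng was 231 reads for the regulators and 183 reads for all sites. Their quartiles at 100 ng were 13.7% and 39.5%, compared with 13.9% and 37.2% over all sites.

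Sites came several to a gene. At 100 ng the regulators had a median of 3 sites a gene, against 2 over all genes, and 43 of 80 (53.8%, interval 42.2 to 65.0%) had at least 3, against 42.0% of all genes. A single site was listed in 23 regulators. A site of at least 50% was present in 36 of the 80 genes (45%, 33.8 to 56.5%), compared with 35.5% over all genes. The transcripts with the most sites were those of edc4 with 13, pum2 and tnrc6a with 9 each, and zc3h3 with 8.

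**Figure D1:**
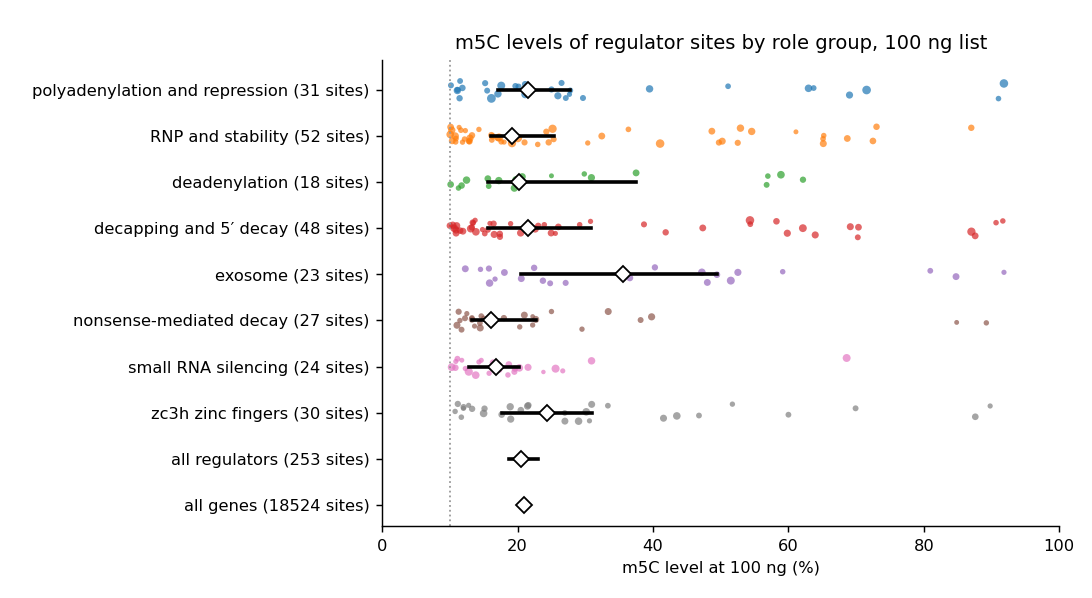
Levels of the 253 regulator sites in the 100 ng list by role group, on an axis in percent. Each point is a site, larger with more reads, the diamond is the median and the black bar its 95% interval, and the dotted line is the 10% minimum of the list. Medians lay between 16% and 35.6%, and no site of deadenylation or small RNA silencing was above 80%.

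By role, the median level at 100 ng was highest in the exosome genes, at 35.6% over 23 sites in 8 genes (interval 20.5 to 49.4%). It was lowest in the genes of nonsense-mediated decay, at 16% over 27 sites in 6 genes (13.3 to 22.7%), and these intervals overlapped. Between them lay small RNA silencing at 16.8% (24 sites), RNP and stability proteins at 19.1% (52 sites), deadenylation at 20.2% (18 sites), decapping and 5′ decay at 21.5% (48 sites), polyadenylation and repression at 21.6% (31 sites) and zc3h zinc fingers at 24.3% (30 sites). The interval of small RNA silencing, 12.8 to 20.3%, ended just below that of the exosome genes. In the lower-input lists the exosome median was 26.0%, 24.1% and 27.6% at 5, 10 and 20 ng. Sites in 1 transcript share their reads' source and are no replicates of a role, so no test was made between roles. The order of roles differed between lists, with polyadenylation and repression highest at 10 ng (24.9%), and deadenylation lowest at 5 ng (15.4%) and RNP and stability proteins at 20 ng (19.7%). Of the 230 sites outside the exosome genes in the plot of levels by role, 162 (70.4%) were at or below 30% and 44 (19.1%) at or above 50%.

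Among genes of polyadenylation and repression, the deepest and most highly methylated transcript was zar1l, which encodes a Zar1-like RNA-binding protein of the oocyte that represses the translation of maternal mRNA. Its first site, at position 150251837 of chromosome 2, had 92.5% (1290 of 1394 reads) at 5 ng, 91.6% (1335 of 1458) at 10 ng, 92.2% (1673 of 1814) at 20 ng and 91.8% (9754 of 10622) at 100 ng. Further along, at position 150252013, the level was 69.2% (2132 of 3083 reads) at 5 ng, 71.2% (2064 of 2899) at 10 ng, 70.7% (2474 of 3497) at 20 ng and 71.5% (9427 of 13176) at 100 ng. Between them, position 150251934 had 15.5% (544 of 3504 reads) at 5 ng, 17.7% (565 of 3184) at 10 ng, 16.1% (683 of 4247) at 20 ng and 16.1% (2835 of 17577) at 100 ng. The order of the 3 sites was the same in every list and their intervals did not overlap within any list, although they lay within 176 nt. Another position, 150251846, lies 9 nt from the first and was listed only at 5 ng (10.6%) and 10 ng (10.9%). Of 129 sites in the series with at least 10000 reads at 100 ng, 6 were in regulators, and 3 of those were these sites of zar1l. Only 3 of the 129 had a level of at least 90%, and the first zar1l site was among them. No site was listed for zar1, its paralogue.

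The cpeb genes encode proteins that bind the cytoplasmic polyadenylation element, first repressing the mRNA and later bringing in the poly(A) polymerase. In cpeb1, the founding member, position 85060408 of chromosome 3 had 61.8% (214 of 346 reads) at 5 ng, 65.5% (184 of 281) at 10 ng, 63.4% (208 of 328) at 20 ng and 63.0% (1078 of 1712) at 100 ng. The same transcript had 25.9% at position 85070122 (226 of 871 reads at 100 ng) and 51.1% at position 85059886 (47 of 92 reads). Among 5 sites of cpeb4, position 33566055 of chromosome 3 had 71.5% (88 of 123 reads) at 5 ng, 61.8% (110 of 178) at 10 ng, 73.0% (119 of 163) at 20 ng and 69.0% (586 of 849) at 100 ng. Its 4 other sites had 19.7 to 27.8% at 100 ng, so 1 strong site stood over a low remainder, and all 5 were in every list. In cpeb2 the strongest of 3 sites, position 17138818 of chromosome 1, had 63.7% at 100 ng (65 of 102 reads). No site was listed for cpeb3.

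Pumilio proteins bind a short element of the 3′ untranslated region and, often with Nanos, repress translation. The 9 sites of pum2 at 100 ng spanned 28267 nt of chromosome 5, with 8 of them between 10.2% and 27.7%. The remaining one, at position 139048283, had 94.8% (73 of 77 reads) at 5 ng, 94.6% (35 of 37) at 10 ng, 86.5% (45 of 52) at 20 ng and 91.0% (71 of 78) at 100 ng. That site lay 293 nt from one at position 139047990 with 28.7% (41 of 143 reads) at 5 ng, 26.3% (20 of 76) at 10 ng, 11.7% (9 of 77) at 20 ng and 25% (42 of 168) at 100 ng, and these intervals did not overlap at any input. The deepest pum2 site, position 139074946, had 17.6% (601 of 3418 reads at 100 ng). The only site of nanos1, a Pumilio partner in the germ line, was at position 359589 of scaffold_83 and had 40.1% (108 of 269 reads) at 5 ng, 41.9% (98 of 234) at 10 ng, 43.1% (131 of 304) at 20 ng and 39.5% (511 of 1294) at 100 ng. No site was listed for nanos3. celf1, known in Xenopus as EDEN-BP for its role in deadenylation, had 4 sites at 100 ng with levels of 11.1% to 29.7% and 108 to 171 reads, and 4 more in lower-input lists only. The celf2 to celf5 genes had none.

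Among RNP and stability proteins, caprin1 encodes a cytoplasmic RNA-binding partner of G3BP. It had 5 sites within 4941 nt of chromosome 4, each in every list, and 13782 reads at the deepest. From the 5′ side, position 7290872 had 21.2% (414 of 1952 reads) at 5 ng, 25.4% (380 of 1494) at 10 ng, 25.2% (429 of 1701) at 20 ng and 25.2% (1660 of 6597) at 100 ng. At position 7292251 the level was 65.5% (186 of 284 reads) at 5 ng, 63.2% (72 of 114) at 10 ng, 75.3% (110 of 146) at 20 ng and 72.5% (266 of 367) at 100 ng. The deepest site, position 7292564, had 18.6% (495 of 2666 reads) at 5 ng, 19.4% (600 of 3086) at 10 ng, 19.7% (691 of 3505) at 20 ng and 20.0% (2760 of 13782) at 100 ng, and position 7295813 had 41.7% (1209 of 2901 reads) at 5 ng, 39.9% (1022 of 2562) at 10 ng, 41.6% (1272 of 3055) at 20 ng and 41.0% (4374 of 10656) at 100 ng. The strongest and the weakest of these 4 sites at 100 ng, 72.5% and 20.0%, were 313 nt apart. The fifth site, position 7291642, is described with the comparisons between inputs.

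fmr1 encodes FMRP, a repressor of translation. Position 35812418 of chromosome 8 had 83.7% (36 of 43 reads) at 5 ng, 82.0% (50 of 61) at 10 ng, 89.8% (53 of 59) at 20 ng and 87.0% (221 of 254) at 100 ng, and position 35815874 had 67.1% (47 of 70 reads) at 5 ng, 72.8% (59 of 81) at 10 ng, 71.7% (76 of 106) at 20 ng and 68.7% (316 of 460) at 100 ng. A pair of lower sites had 24.6% and 16.1% at 100 ng. In fxr1, its paralogue, position 95574168 of chromosome 5 had 55.6% (154 of 277 reads) at 5 ng, 55.6% (183 of 329) at 10 ng, 57.5% (164 of 285) at 20 ng and 54.6% (662 of 1213) at 100 ng, while the 2 other sites of that list were at 17.1% and 11.9%. Each of these transcripts thus had a site above 50% in all lists.

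The larp genes encode La-related proteins, of which larp1 acts on mRNAs with a terminal oligopyrimidine tract and larp4 and larp4b bind poly(A) tails and their binding protein. larp4b had the most sites of the group, 7 at 100 ng, and the strongest, position 106860023 of chromosome 5, had 64.6% (42 of 65 reads) at 5 ng, 70.8% (46 of 65) at 10 ng, 67.8% (40 of 59) at 20 ng and 73.0% (211 of 289) at 100 ng. In larp1, position 9410140 of chromosome 3 had 49.5% (50 of 101 reads) at 5 ng, 50% (62 of 124) at 10 ng, 49.6% (60 of 121) at 20 ng and 50.2% (338 of 673) at 100 ng. These 4 levels lay within 0.718 points, the smallest range of the 104 regulator sites that have 50 reads or more in all lists. In larp1b, position 54761230 of chromosome 1 had 54.3% (151 of 278 reads) at 5 ng, 53.0% (150 of 283) at 10 ng, 53.5% (174 of 325) at 20 ng and 52.9% (690 of 1304) at 100 ng, a range of 1.40 points. larp6, whose mammalian protein binds collagen mRNA, had 5 sites of 12.3% to 23.0% at 100 ng, none of them in every list. The only larp4 site had 52.5% at 100 ng (94 of 179 reads), and larp7 had none listed.

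pabpc1 encodes the cytoplasmic poly(A)-binding protein and pabpc1l its embryonic form. The pabpc1 sites were deep and low, with 10.0% to 19.2% over 1951 to 6499 reads at 100 ng. In pabpc1l, position 5560700 of chromosome 10 had 66.2% (96 of 145 reads) at 5 ng, 62.4% (83 of 133) at 10 ng, 67.6% (98 of 145) at 20 ng and 65.2% (430 of 660) at 100 ng. Reads of such near copies could be divided between them, since the authors also mapped reads with several places to transcripts. ybx2 encodes a Y-box protein that packages stored mRNA in oocytes, and ybx1 and ybx3 had no listed site. Its 2 sites were neighbouring positions of scaffold_1851. Position 9347 had 15.6% (15 of 96 reads) at 5 ng, 11.9% (12 of 101) at 10 ng, 11% (11 of 100) at 20 ng and 10.3% (51 of 493) at 100 ng, and position 9346, next to it, had 58.9% (56 of 95 reads) at 5 ng, 34.7% (35 of 101) at 10 ng, 56.6% (56 of 99) at 20 ng and 48.7% (242 of 497) at 100 ng. The intervals of the pair did not overlap in any list, and the level at position 9346 was lowest at 10 ng. stau1, encoding the double-stranded RNA-binding protein Staufen, had 65.1% at position 29868809 of chromosome 10 (56 of 86 reads at 100 ng). elavl1 had a single site of 16.3% (40 of 245 reads), and igf2bp3 had none.

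In deadenylation, the tail is first shortened by PAN2 and PAN3 and then by the CCR4-NOT complex. pan2, the nuclease of the first pair, had 3 sites at 100 ng on chromosome 2. At position 134779714 the level was 57.4% (319 of 556 reads) at 5 ng, 61.0% (319 of 523) at 10 ng, 60.3% (368 of 610) at 20 ng and 58.9% (1162 of 1973) at 100 ng, while the others had 30.9% (267 of 864 reads) and 17.2% (202 of 1173 reads) at 100 ng. pan3, its partner, had only low sites, at 19.8% (256 of 1296 reads) and 10.1% (37 of 366 reads). Of 11 symbols of CCR4-NOT subunits, 7 had a site, 9 sites in all. Of the rest, cnot9 had sites under the older symbol rqcd1, and cnot6 had no match in the gene table. cnot2, a subunit of the NOT module, had the strongest, position 49903876 of chromosome 3, with 57.3% (47 of 82 reads) at 5 ng, 55.4% (31 of 56) at 10 ng, 65% (39 of 60) at 20 ng and 62.1% (133 of 214) at 100 ng. The cnot6l deadenylase had 12.5% (176 of 1413 reads), and cnot8, also a deadenylase, had 37.5% (192 of 512 reads) at 100 ng. The cnot1, cnot3, cnot10 and cnot11 sites had at most 79 reads there, with levels of 11.3% to 57.0%. None was listed for cnot4 or cnot7. Deadenylation genes had no site above 62.1% in the 100 ng list.

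BTG and TOB proteins bring the deadenylases to mRNA, and in mice btg4 is required to clear maternal mRNA. Its only site, position 75082467 of chromosome 7, had 15.4% (122 of 794 reads) at 5 ng, 16.5% (64 of 389) at 10 ng, 12.5% (66 of 526) at 20 ng and 19.5% (219 of 1122) at 100 ng. The interval at 20 ng lay below the one at 100 ng, yet the two-sided Fisher's exact test did not call the difference of -6.97 points after adjustment over all sites (p = 0.000461, adjusted p = 0.181). tob1 had 56.8% (67 of 118 reads) and 15.7% (14 of 89 reads) at 100 ng. btg1, btg2 and tob2 had no listed site.

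In decapping and 5′ decay, all 11 genes of the list had a site at 100 ng, 41 sites together. For this and the other families, no share over all genes is given to set the count against. edc4, the scaffold of the decapping complex, had 13 over 42800 nt of chromosome 4. Its strongest was position 43974466, with 67.9% (108 of 159 reads) at 5 ng, 61.4% (43 of 70) at 10 ng, 68.5% (76 of 111) at 20 ng and 70.3% (306 of 435) at 100 ng. Nearly as high was position 43960628, with 63.5% (158 of 249 reads) at 5 ng, 73.3% (126 of 172) at 10 ng, 69.7% (152 of 218) at 20 ng and 69.1% (475 of 687) at 100 ng. Next was position 43955051, with 51.8% (86 of 166 reads) at 5 ng, 48.3% (43 of 89) at 10 ng, 58.8% (50 of 85) at 20 ng and 58.2% (191 of 328) at 100 ng. Position 43974345 had 41.9% (103 of 246 reads at 100 ng), and the 9 others were at 10 to 25%. High and low sites lay side by side, since position 43974434, only 32 nt from the strongest, had 10% (34 of 340 reads) and was listed at a lower input only at 10 ng.

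**Figure D2:**
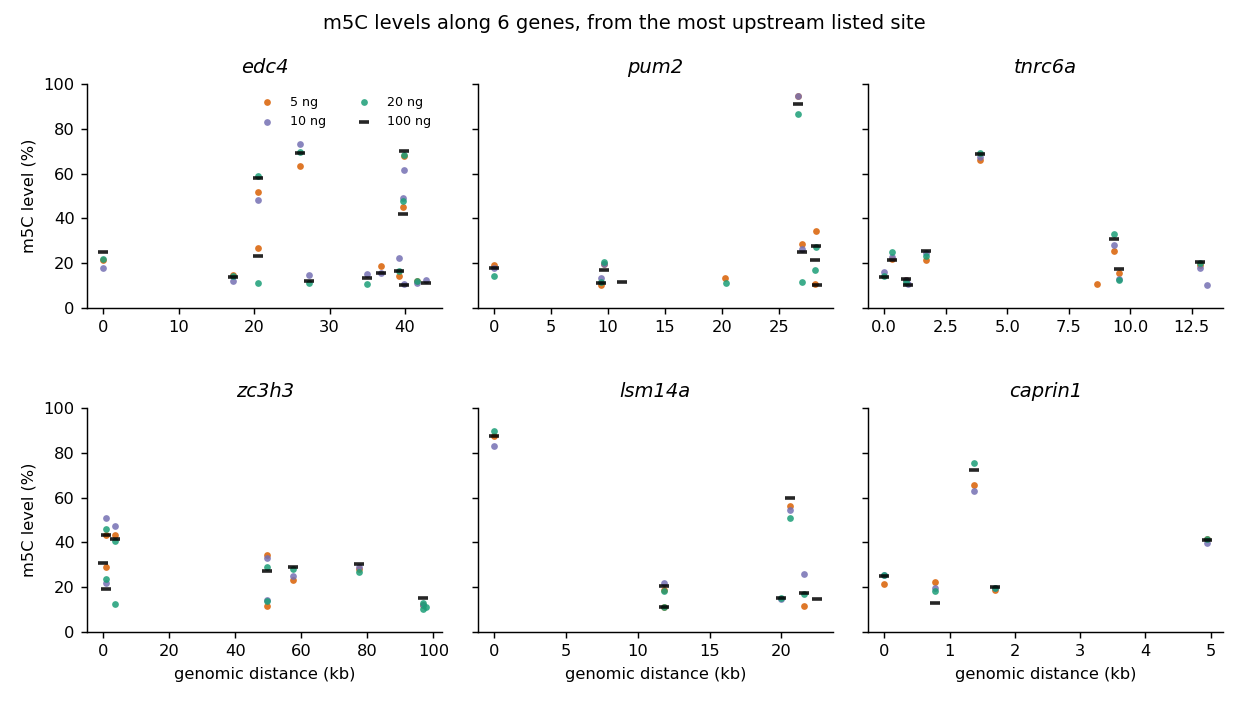
Levels in percent along 6 transcripts against genomic distance in kb, introns included, from the most upstream listed site in the direction of transcription. Points are the 5, 10 and 20 ng lists and black bars the 100 ng list. In pum2 and tnrc6a a single site stood far above the others, while edc4 had 3 sites above 50% at 100 ng and zc3h3 none.

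lsm14a and lsm14b encode RAP55 proteins, which hold mRNA silent in RNPs and bind the decapping machinery. The 3 sites of lsm14b were all high. Position 1122698 of chromosome 10 had 85.0% (743 of 874 reads) at 5 ng, 87.1% (868 of 996) at 10 ng, 87.6% (1014 of 1157) at 20 ng and 87.0% (5514 of 6336) at 100 ng. Position 1127626 had 55.0% (390 of 709 reads) at 5 ng, 58.3% (331 of 568) at 10 ng, 60.5% (474 of 783) at 20 ng and 62.1% (1759 of 2831) at 100 ng, and position 1128945 had 53.2% (1098 of 2065 reads) at 5 ng, 55.3% (1416 of 2559) at 10 ng, 55.1% (1597 of 2896) at 20 ng and 54.3% (5495 of 10116) at 100 ng. At 100 ng the 3 intervals were apart, and every level in every list was above 50%. lsm14a reached a similar maximum at position 19550800 of chromosome 4, with 87.6% (134 of 153 reads) at 5 ng, 83.0% (88 of 106) at 10 ng, 89.8% (115 of 128) at 20 ng and 87.6% (402 of 459) at 100 ng. Its next highest, position 19530202, had 59.8% (508 of 849 reads at 100 ng), and 5 further sites had 10.9% to 20.5%.

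dcp1a encodes the activator of the decapping enzyme. Of its 6 sites at 100 ng on scaffold_464, position 46585 had 61.6% (135 of 219 reads) at 5 ng, 57.3% (67 of 117) at 10 ng, 53.2% (92 of 173) at 20 ng and 64.0% (488 of 763) at 100 ng. The neighbour 62 nt away, position 46523, had 26.0% (96 of 369 reads at 100 ng), and the others were at 10.4% to 22.6%. In dcp1b, position 866386 of scaffold_41 had 70.2% (85 of 121 reads). dcp2, the enzyme itself, had 19.0% (11 of 58 reads) and 13.7% (7 of 51 reads), and neither site was in a lower-input list. The nucleases xrn1 and xrn2, which degrade RNA from the 5′ end in cytoplasm and nucleus, had 38.7% (58 of 150 reads) in the former and at most 13.1% (307 of 2347 reads) in the latter. lsm11 matched by symbol but is a subunit of the U7 particle that processes histone mRNA. It had 5 sites within 789 nt of chromosome 3, with 91.7% (66 of 72 reads) and 90.7% (68 of 75 reads) at 2 of them at 100 ng. Of the 8 Lsm ring genes, most of whose proteins bind short tails before decapping, only lsm2 (47.3%, 241 of 509 reads) and lsm3 (13.4%, 9 of 67 reads) had a site.

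The exosome degrades RNA from the 3′ end. Of its 10 core genes, 8 had a site at 100 ng, exosc7 had one at 10 and 20 ng only, and exosc6 had none. In exosc4, a ring subunit, position 134448427 of chromosome 6 had 88.0% (117 of 133 reads) at 5 ng, 88.1% (111 of 126) at 10 ng, 88.5% (131 of 148) at 20 ng and 84.8% (467 of 551) at 100 ng. Also high was position 134449474, with 81.0% (85 of 105 reads) at 100 ng, compared with 90% (18 of 20 reads) in the 5 ng list. The other sites of exosc4 had 49.4% (176 of 356 reads) and 36.6% (173 of 473 reads). exosc3, an RNA-binding cap subunit, was the deepest. Position 101525877 of chromosome 1 had 52.0% (339 of 652 reads) at 5 ng, 52.0% (358 of 688) at 10 ng, 49.0% (403 of 822) at 20 ng and 51.5% (1781 of 3459) at 100 ng. A neighbour at position 101525991 had 41.4% (134 of 324 reads) at 5 ng, 49.8% (160 of 321) at 10 ng, 43.5% (157 of 361) at 20 ng and 47.2% (780 of 1652) at 100 ng, and 25 nt beyond it position 101526016 had 13.9% (37 of 266 reads) at 5 ng, 17.6% (45 of 255) at 10 ng, 13.3% (43 of 324) at 20 ng and 15.9% (220 of 1387) at 100 ng. The interval of the last lay below that of its neighbour in each list.

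exosc5 and exosc8, both of the ring, had 52.5% (435 of 828 reads) and 48.0% (255 of 531 reads) at their strongest sites at 100 ng. In exosc9 the strongest of 3 had 59.2% (42 of 71 reads). The highest level of any regulator site was in exosc2, position 5721534 of chromosome 8, at 91.8% (interval 80.4 to 97.7%), but it rested on 45 of 49 reads and was in no other list. exosc10, the nuclear catalytic subunit, had 5 sites of 18.0% to 40.3% at 100 ng.

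In nonsense-mediated decay the helicase UPF1 is phosphorylated by SMG1 and then bound by other SMG proteins, SMG5 and SMG6 among them. Of 10 genes 6 had a site, and none was listed for upf3a, upf3b, smg8 or smg9. smg6, which encodes the endonuclease, was the best covered. At position 27557430 of chromosome 2 it had 37.4% (98 of 262 reads) at 5 ng, 34.5% (92 of 267) at 10 ng, 35.3% (84 of 238) at 20 ng and 39.8% (343 of 862) at 100 ng. Next to it, 44 nt upstream, position 27557386 had 37.3% (82 of 220 reads) at 5 ng, 33.2% (66 of 199) at 10 ng, 40.7% (70 of 172) at 20 ng and 33.4% (221 of 662) at 100 ng. The 5 upf1 sites had 11.0% to 38.2%, the 6 of smg1 11.5% to 25% and the 3 of smg5 22.2% to 29.5%. The median coverage of this group at 100 ng was 83 reads, the lowest of the roles in that list though not at 5 or 20 ng. Of its 33 sites 14 (42.4%) were in the 100 ng list only, compared with 20.9% of all regulator sites and 22.0% of all sites.

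In silencing, argonaute proteins carry small RNAs, and TNRC6 proteins link them to deadenylation. tnrc6a held 9 of the 24 sites at 100 ng and 21272 of the 23358 reads. Its strongest, position 14286121 of chromosome 9, had 66.0% (472 of 715 reads) at 5 ng, 67.6% (485 of 717) at 10 ng, 69.3% (606 of 875) at 20 ng and 68.6% (2342 of 3414) at 100 ng. Second was position 14291573, with 25.4% (79 of 311 reads) at 5 ng, 28.0% (80 of 286) at 10 ng, 33.1% (98 of 296) at 20 ng and 30.9% (440 of 1423) at 100 ng, and the other 7 had 10.3% to 25.6% at 100 ng. tnrc6b and tnrc6c had 1 and 2 sites, each with at most 70 reads and a level of 11.8% to 18.6%. No argonaute site was above 26.7% at 100 ng. The ago4 site at position 56113609 of chromosome 2 had 28% (14 of 50 reads) at 5 ng, 34.3% (23 of 67) at 10 ng, 21.4% (18 of 84) at 20 ng and 19.6% (70 of 357) at 100 ng, ago1 had 10.8% to 18.7%, and the 4 ago3 sites, with 21 to 57 reads, were in no lower-input list. dicer1, the nuclease that cuts precursors of small RNAs, had 14.3% (7 of 49 reads) and 11.1% (13 of 117 reads). ago2 had no listed site. Apart from the one site of tnrc6a, no site of the group was above 30.9% at 100 ng.

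The zc3h genes were taken by name, mostly share a zinc finger of the CCCH type rather than a role, and act largely in the nucleus. zc3h3, which in mammals acts in polyadenylation and export, had 8 sites at 100 ng over 96934 nt of chromosome 6. Position 133689762 had 43.1% (129 of 299 reads) at 5 ng, 50.8% (180 of 354) at 10 ng, 46.2% (199 of 431) at 20 ng and 43.5% (765 of 1758) at 100 ng, and position 133686988 had 43.2% (67 of 155 reads) at 5 ng, 47.5% (85 of 179) at 10 ng, 40.5% (92 of 227) at 20 ng and 41.5% (295 of 710) at 100 ng. Its other levels at 100 ng were 15.0% to 30.6%. zc3h11a, a protein of mRNA export, had the strongest well-covered site, position 61724202 of chromosome 2, with 84.8% (95 of 112 reads) at 5 ng, 88.0% (81 of 92) at 10 ng, 84.4% (65 of 77) at 20 ng and 87.6% (325 of 371) at 100 ng. Of the 7 zc3h4 sites, 1 had 69.9% (86 of 123 reads) and the others 11.2% to 33.3%. Near each other in zc3h4, positions 55952226 and 55952241 of chromosome 8 had 20.5% (69 of 337 reads) and 21.6% (71 of 329 reads) at 100 ng, a pair of like levels. zc3hc1, a protein of the nuclear pore basket, had levels of up to 60% (66 of 110 reads), zc3h18 had 18.9% (211 of 1116 reads) and 12.0% (22 of 183 reads), and zc3h13, of the complex that methylates adenosine in mRNA, reached 89.8% on 44 of 49 reads.

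Strong sites stood beside weak ones in the same transcript, in regulators about as often as over all genes. Of the 57 regulators with at least 2 sites at 100 ng, the interval of the highest site lay above that of the second highest in 30 (52.6%), compared with 53.5% of 4171 genes over the series. The range within a gene had a median of 38.6 points for regulators and 30.1 points for all genes, and it reached 80.9 points in pum2. A range can only widen with more sites, and regulators had a median of 3 sites a gene against 2 over all genes. The part of this in the wider range was not tested. Few neighbours were close together. The median gap between neighbouring sites of a gene was 1844 nt for regulators and 1523.5 nt over all sites at 100 ng. At 100 ng, 26 of 253 sites (10.3%, interval 6.82 to 14.7%) had another site of the gene within 30 nt, compared with 10.9% of all sites. Directly adjacent positions, as in ybx2, were 2 of the 253 sites (0.791%, interval 0.0959 to 2.83%), against 3.27% of all sites. Such sites come in pairs, so these intervals are too narrow. The authors removed reads with many unconverted cytosines before calling sites, which can lower levels in dense clusters, and its part in these values was not tested.

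The study's comparison asked whether a small input gives the same sites and levels as 100 ng. Of the 253 regulator sites at 100 ng, 62.5% (interval 56.2 to 68.4%) were found at 5 ng, 59.7% (53.4 to 65.8%) at 10 ng and 62.8% (56.6 to 68.8%) at 20 ng. Over all sites the shares were 60.2%, 56.9% and 61.3%, within those intervals. Coverage moved with being found. Regulator sites found at 5 ng had a median of 477.5 reads at 100 ng and those not found 71, and the levels there were 24.7% and 14.8%. All 51 regulator sites that had 500 reads or more and 20% or more at 100 ng were listed in every lower-input list (interval 93.0 to 100%). Over the series, 99.92%, 99.96% and 99.96% of 2486 such sites were found at 5, 10 and 20 ng. With at least 500 reads at any level, 89.4%, 94.1% and 89.4% of regulator sites were found. The shares of all 4794 such sites were 90.5%, 91.3% and 92.3%. Of the 85 regulator sites with at least 500 reads, 15 were missing from a lower-input list, a count that was not made over all sites. Those 15 had levels of 10.0% to 14.5% at 100 ng, near the minimum of the lists. Low levels were not particular to regulators. Over all sites of such depth, those not found at 5, 10 and 20 ng had medians of 11.2%, 11.2% and 11.0% at 100 ng. Among the 15 were 2 sites each of edc4, tnrc6a and xrn2 and a site of pabpc1 with 1951 reads.

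Levels of the same sites were close in all lists. At 50 reads or more, 104 regulator sites were listed in every list. Their medians were 25.6%, 28.2%, 25.0% and 25.1% at 5, 10, 20 and 100 ng, with intervals that overlapped. This choice leaves out sites that fell below the 10% minimum in any list, which favours close levels. The lowest and highest of the 4 levels of a site differed by a median of 6.19 points, compared with 5.96 points over all 6162 such sites. At 94 of the 104 sites (90.4%) the 4 intervals shared a common value, compared with 92.1% of all sites. The 10 exceptions were in btg4, caprin1 (2 sites), dcp1a, exosc10, lsm14b, pabpc1, pum2, ybx2 and zc3h3.

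**Figure D3:**
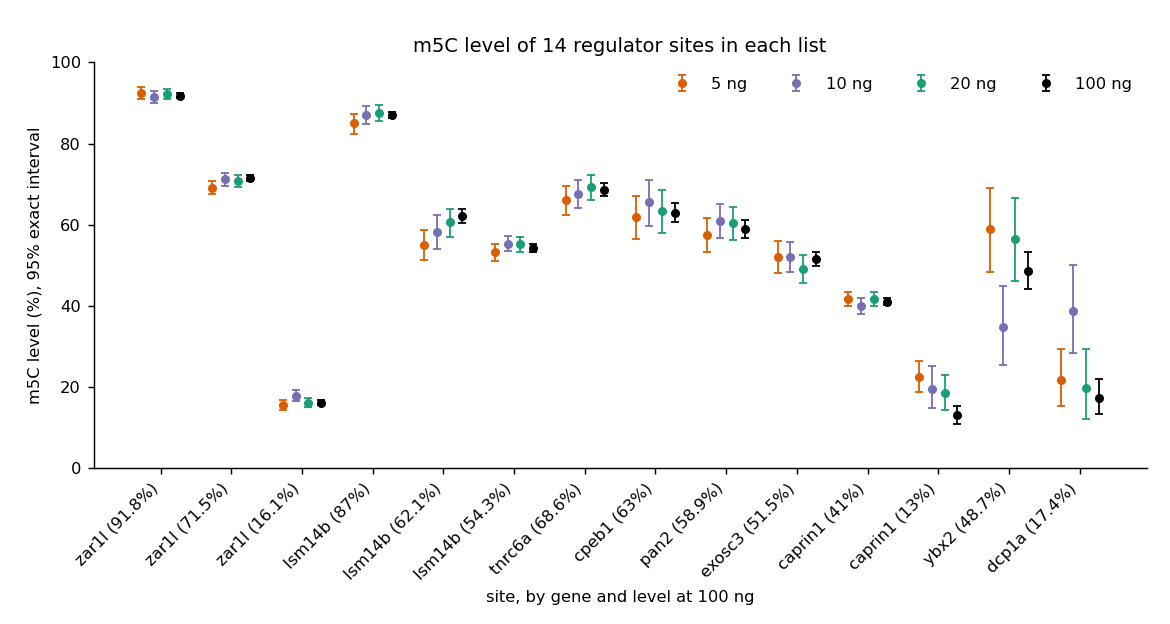
Levels of 14 regulator sites in percent in each of the 4 lists, with exact 95% intervals, labelled by gene and by level at 100 ng. The first 3 are zar1l, whose intervals are narrow because each had at least 1394 reads, and the last 3 are sites of caprin1, ybx2 and dcp1a at which 1 list stood apart from another.

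Two-sided Fisher's exact tests on the reads, with adjustment over all sites of the pair, compared each lower-input list with the 100 ng list. They compare libraries and not inputs in general. Only sites listed in both lists were tested, so a level under 10% in either could not enter. At 5 ng, 1 of 136 regulator sites was called at 0.05, where 0.278% of all 7923 sites were called, and 11 (8.09%) had an unadjusted p under 0.05, compared with 8.75% of all sites. At 10 ng 0 of 124 were called (0.0406% of all sites), with 9 (7.26%) at an unadjusted p under 0.05 against 8.61% of all sites. At 20 ng 0 of 129 were called (0.15% of all sites), with 14 (10.9%, interval 6.06 to 17.5%) against 7.40%. The median difference from 100 ng at 5 ng was -0.70 points (interval -1.58 to 0.47), that at 10 ng 0.10 points (-0.67 to 0.87) and that at 20 ng 0.17 points (-0.69 to 0.66). Over all sites it was -0.26, 0.011 and 0 points. Within 10 points of the 100 ng level lay 93.4%, 94.4% and 93.8% of the regulator sites at 5, 10 and 20 ng. The shares of all sites were similar, at 93.94%, 94.34% and 95.01%, so this closeness was not particular to regulators. Between the lower inputs the test called 0 regulator sites of 120 for 5 against 10 ng (0.0146% of all sites), 0 of 123 for 5 against 20 ng (0.0279%) and 0 of 123 for 10 against 20 ng (0.0429%). At an unadjusted p under 0.05 there were 9 (7.5%), 13 (10.6%, interval 5.75 to 17.4%) and 10 (8.13%), where all sites had 7.21%, 6.66% and 6.54%.

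**Figure D4:**
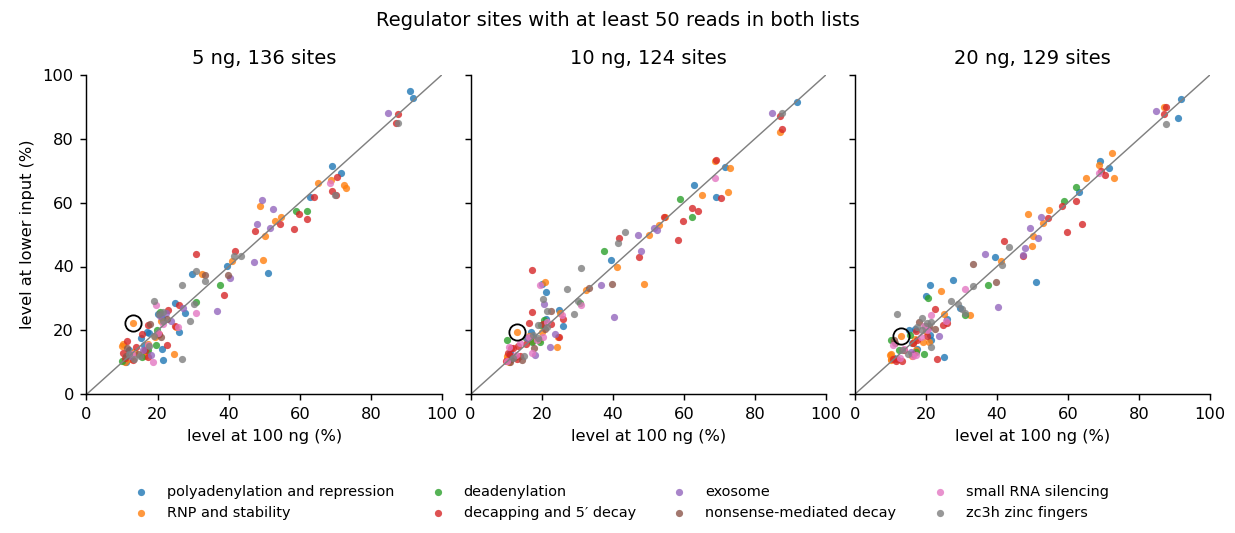
Level of each regulator site in a lower-input list against its level at 100 ng, both in percent, colored by role. Sites were listed in both lists with at least 50 reads. The line marks equal levels and the ring the caprin1 site that was called at 5 ng. Of the regulator sites 93.4 to 94.4% lay within 10 points of the line, compared with 93.94 to 95.01% of all sites, which are not drawn.

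The called site was in caprin1, at position 7291642 of chromosome 4. It had 22.4% (112 of 501 reads) at 5 ng, 19.6% (49 of 250) at 10 ng, 18.4% (61 of 332) at 20 ng and 13.0% (123 of 949) at 100 ng. All lower-input levels were above that of 100 ng, and the intervals were 18.8 to 26.3% at 5 ng and 10.9 to 15.3% at 100 ng. The difference at 5 ng was 9.39 points, with p = 6.28e-06 by Fisher's exact test and an adjusted p of 0.00829. With the binomial variance multiplied by 1.42, a factor estimated from the spread between lower-input lists, its interval was 4.36 to 14.4 points, the adjusted p was 0.141 and the call was lost. At 10 and 20 ng the differences were 6.64 and 5.41 points, with adjusted p of 0.352 and 0.562. When the reads of the lower inputs were added up, this site was the only regulator site called, of 104 (Fisher's exact test, adjusted p = 0.00302, 0.0716 with the variance factor). Of all sites, 0.584% were called. The sum includes the 501 reads at 5 ng and uses the same 949 at 100 ng, so it is no independent result. Coverage of the caprin1 site at 5 ng was 0.528 of that at 100 ng, more than the median ratio of 0.238 among regulators. Whether this bears on the level was not tested.

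Other sites with large differences were not called. By mean difference over the lower inputs among sites on 1 side of 100 ng in all 3, the largest was -11.0 points in exosc10, at position 39739917 of chromosome 7, with 36.4% (60 of 165 reads) at 5 ng, 24.1% (27 of 112) at 10 ng, 27.4% (37 of 135) at 20 ng and 40.3% (87 of 216) at 100 ng. Its neighbour 66 nt away, position 39739851, had 22.8% (39 of 171 reads) at 5 ng, 18.8% (24 of 128) at 10 ng, 18.2% (25 of 137) at 20 ng and 23.7% (61 of 257) at 100 ng. In cpeb4, position 33565240 of chromosome 3 had 25.3% (23 of 91 reads) at 5 ng, 34.7% (26 of 75) at 10 ng, 30.8% (24 of 78) at 20 ng and 20.1% (30 of 149) at 100 ng, a mean difference of 10.1 points. For dcp1a it was 9.40 points at position 48431 of scaffold_464, which had 21.7% (31 of 143 reads) at 5 ng, 38.8% (33 of 85) at 10 ng, 19.8% (18 of 91) at 20 ng and 17.4% (54 of 311) at 100 ng. Here only the 10 ng level stood apart, and its difference of 21.5 points from 100 ng had an adjusted p of 0.0504. The ago4 site given above had a mean difference of 8.31 points and caprin1 one of 7.15 points. In lsm14b, the difference of 5 from 100 ng at position 1127626 was -7.13 points (Fisher's exact test, adjusted p = 0.110), and in ybx2 position 9346 was 24.3 points higher at 5 than at 10 ng (adjusted p = 0.281).

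Coverage differed between lists in a way that varied by transcript. Among regulator sites with at least 50 reads at 100 ng, the median ratio of coverage at 5, 10 and 20 ng to that at 100 ng was 0.238, 0.220 and 0.258, and over all sites it was 0.234, 0.219 and 0.252. A ratio above 0.5 was found at 22 of 154 regulator sites at 5 ng (14.3%, interval 9.17 to 20.8%), at 2 of 151 at 10 ng (1.32%) and at 9 of 158 at 20 ng (5.70%). Over all sites these shares were 6.38%, 1.02% and 1.96%. A listed site needs 20 reads, so shallow sites can be listed only with a high ratio, and sites of a transcript share its coverage. With at least 500 reads at 100 ng, 2 of 76 regulator sites (2.63%) and 1.31% of all sites had such a ratio at 5 ng. These 2 were the btg4 site, with 794 reads at 5 ng against 1122 at 100 ng, and the caprin1 site that was called. The 22 sites were in 16 genes, and 18 of them had a value at both 10 and 20 ng. At all 18, more reads covered the site at 5 ng than at either, which the choice by a high ratio at 5 ng favours. The same count was not made over all sites.

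**Figure D5:**
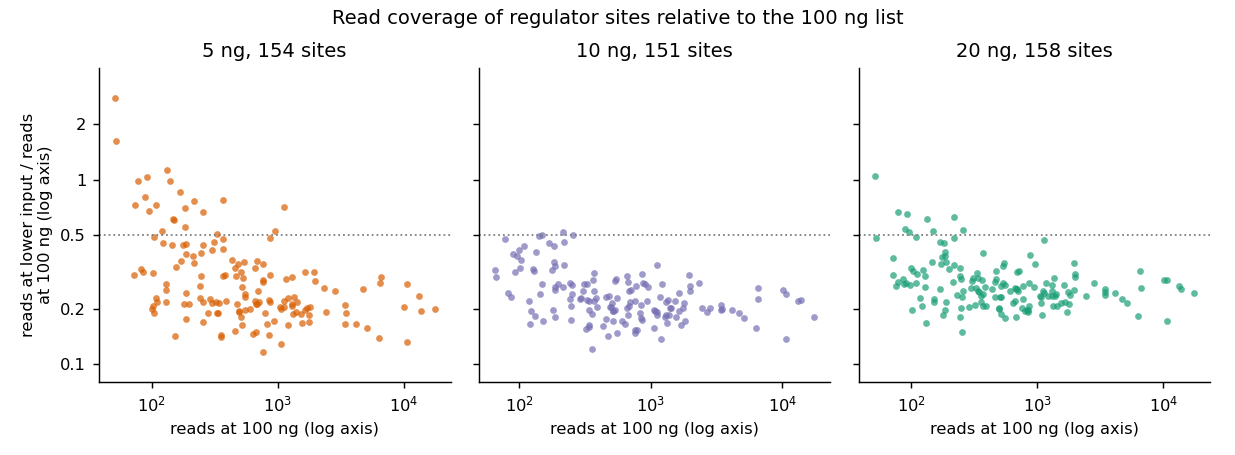
Reads at a regulator site in a lower-input list divided by its reads at 100 ng, against the reads at 100 ng, both on log axes, for sites with at least 50 reads at 100 ng. The dotted line marks a ratio of 0.5, which 22, 2 and 9 sites exceeded at 5, 10 and 20 ng.

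The 3′ part of pum2 had the highest ratio. Position 139046793 had 140 reads at 5 ng, 53 at 20 ng and 51 at 100 ng and was not listed at 10 ng, and its level was 10.7%, 17.0% and 21.6% in those lists. For the strong pum2 site described above the reads were 77, 37, 52 and 78 at 5, 10, 20 and 100 ng. On the 5′ side, position 139074946 had 566 reads at 5 ng against 3418 at 100 ng. That ratio was below the lower quartile of the regulator sites at 5 ng, 0.197. Reads in cpeb1 had another order, with 95 at 5 ng against 92 at 100 ng at position 85059886, then 346 against 1712 at position 85060408 and 422 against 871 at position 85070122, the site farthest 5′. The cause of the difference within these transcripts was not tested.

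Many regulators had no site listed under their symbol. Without the share over all genes of the gene table, the counts that follow cannot be read as high or low. Of 114 symbols of the complexes and families considered, 108 were in the gene table, 70 had a site at 100 ng and exosc7 at lower inputs only, which left 37 genes of the table without one under that symbol. The other 6 symbols, celf6, cnot6, fxr2, igf2bp1, igf2bp2 and nanos2, had no match in the table, so an empty result for them may be one of naming. For pum3 and cnot9 the files hold sites under the older symbols kiaa0020 and rqcd1, which the choice by symbol did not take. The decapping and stress granule lists, of 11 and 4 genes, were the complete ones besides pan2 and pan3. In the gene table, 1 of 5 celf genes, 1 of 4 elavl genes and 1 of 3 ybx genes had a site, and igf2bp3, the only igf2bp gene there, had none. For comparison, 41 other genes of these pathways were in the gene table, counted once where a list held an old and a new symbol. Of these, 30 had a site at 100 ng, with a median level of 21.3% over 94 sites (interval 16.1 to 24.9%). Sites listed under ccrn4l and brf2, synonyms of noct and zfp36l2 in the gene table, were not counted.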

How the data were processed

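RNA bisulfite sequencing libraries of X. tropicalis stage 0 embryos were grouped by the RNA input in their labels. By the published methods, the authors trimmed reads with cutadapt and Trimmomatic, mapped them to the converted Xenbase 9.1 genome with HISAT2 (version 2.10 in the submitters' processing notes) and the rest to converted transcripts with Bowtie2. They dropped reads with many unconverted cytosines and sites in conversion-resistant genes, and called sites by a one-sided binomial test, combining replicates. Each file as deposited by the authors holds coverage, the count of C and T reads at a site, and the m5C level as a fraction of them. The deposited p-value belongs to the authors' calling of sites and was not used.

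Unconverted reads were recovered as level times coverage, whole to within 2.6e-05 reads. Member genes were found by family names in the symbol, and all 84 symbols were in the RefSeq gene table used for names only. The members, the role groups and the gene lists were chosen with earlier results of these data known. Sites were matched by chromosome, position and strand. Shares and levels have Clopper-Pearson intervals and medians have order-statistic intervals, at 95%. For each pair of lists, sites with 50 reads or more in both were compared with Fisher's exact test, two-sided (scipy 1.17.1), and p-values were adjusted after Benjamini and Hochberg over every site tested, at 0.05. Fisher's test was tried on simulated reads with binomial counting error only. The simulation held no extra spread between lists, so it cannot show how the test behaves under such spread. An alternative normal test multiplied the binomial variance by 1.42, an average of the factors seen in 3 comparisons among lower inputs (sites of 30% and 50 reads or more). Other alternatives were coverage and level minimums, read weighting, means over genes and added-up lower inputs.

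Named genes were, in each of 8 role groups, the 5 with the most sites at 100 ng, with ties by coverage. Named sites were the 6 highest at 100 ng that have 50 reads or more in all lists, the highest of each group, the 5 with the largest mean difference in 1 direction over all lower inputs, and those called in any pair. Families with sites in some members only were also named. Further genes and sites were chosen after their values were seen. No sequence was read, and some member genes are not reported here.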

Additional observations from a re-analysis of the deposited data

How the results depend on the processing

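No paired analysis was possible because both 100 ng libraries share 1 set of deposited values and each other input had 1 library, and for the same reason no library could be left out. At least 100 reads left 103, 97 and 102 regulator sites in 33, 38 and 41 genes at 5, 10 and 20 ng, and a level of at least 20% left 105, 99, 107 and 132 sites at 5, 10, 20 and 100 ng, which such minimums must lower. The share of 100 ng regulator sites found was 76.5%, 72.7% and 79.5% at 5, 10 and 20 ng among those of at least 20%. Over sites with 50 reads in every list, medians were 28.2%, 25.0% and 25.1% at 10, 20 and 100 ng. With 100 reads in every list it was 26.8%, 25.7%, 26.7% and 28.0% at 5, 10, 20 and 100 ng. The read-weighted level was 32.9%, 33.6%, 34.3% and 35.8%, and the median over gene means 28.1%, 29.2%, 27.9% and 27.1%. The variance factor left 0 sites called at 5 ng. Adding up the lower inputs, 5 ng among them, called 1, the caprin1 site, where 10 and 20 ng alone had called 0. Leaving out the zc3h genes, an alternative chosen after the data were seen, moved no count, median or share by more than the limits set. Of 88 alternative values in all, 57 were within those limits. Median coverage of regulator sites was 121.5, 104 and 105 reads at 5, 10 and 20 ng and 231 at 100 ng, and without replicates the spread between libraries of 1 input is unknown.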
